A study of Mus musculus with 12 samples.

Results

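Transverse aortic constriction (TAC), a surgical narrowing of the aorta that makes the left ventricle pump against a higher pressure, was compared with sham surgery in hearts of Balb/cByJ mice. The comparison used 6 of the 12 libraries of the series, 3 after TAC and 3 after sham, chosen by their labelled strain and surgery. The other 6 libraries came from Balb/cJ mice with the same pair of surgeries. Balb/cByJ is a substrain of Balb/c that, by the name the series gives it, carries a deletion in Acads, the gene for short-chain acyl-CoA dehydrogenase. Sham and TAC animals alike received food of 10 kcal% fat, begun 4 days ahead of the operation and continued until the hearts were collected 1 week later. No source used here gives age, sex or the number of animals behind each library, so the p-values measure the spread between libraries. RNA came from heart tissue with no separation of chambers or cell types.

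A heart under pressure load is known to thicken. Its muscle cells re-express proteins of the fetal heart, its fibroblasts lay down collagen and other matrix, and immune cells enter or multiply. Fatty acid oxidation, which supplies most of the energy of the adult heart, is known to decline in the overloaded heart. Whole-tissue RNA mixes all of these cells, so fewer cells of a type and less RNA per cell cannot be told apart in any result here.

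One week of load was accompanied by more RNA for the matrix, for macrophage and acute-phase genes and for a small set of muscle stress genes, and by less RNA for mitochondrial oxidation. Of 14038 genes with a mean normalized value of at least 10, 1765 (12.6%) passed at an adjusted p under 0.1 by limma on log2(value + 1). The rises numbered 1097 (7.81% of the genes tested) and the falls 668 (4.76%). Among the rises 418 exceeded 2-fold, against 15 of the falls. The median log2 difference over all genes tested was 0. Scaling all libraries to 1 common total shifted the median by 0.15 and gave 1634 rises and 228 falls. Counts of falls therefore depended on the scaling more than counts of rises.

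One library went against its strain label. At 10 genes the other 5 Balb/cByJ libraries lay at least 4-fold from the 6 Balb/cJ libraries, and TAC library 6 was nearer Balb/cJ at all 10. Zhx2, a zinc finger repressor, had normalized values of 837, 767 and 831 in sham and 728, 838 and 48 after TAC, against 21 to 47 in Balb/cJ. Dnah17, an axonemal dynein heavy chain, had 805, 944 and 1019 in sham and 953, 826 and 2 after TAC, against 1 to 11 in Balb/cJ. Otud3, a deubiquitinase, went the other way, with 158 in TAC library 6, 10 to 14 in the other Balb/cByJ libraries and 201 to 238 in Balb/cJ. TAC library 6 fell inside the Balb/cJ range at 5 of the 10 genes, inside the Balb/cByJ range at 0, and outside both at the other 5. Results are therefore given with TAC library 6 and without it, and in brackets "without" or a value after a semicolon gives the log2 difference in the fit without that library.

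**Figure D1:**
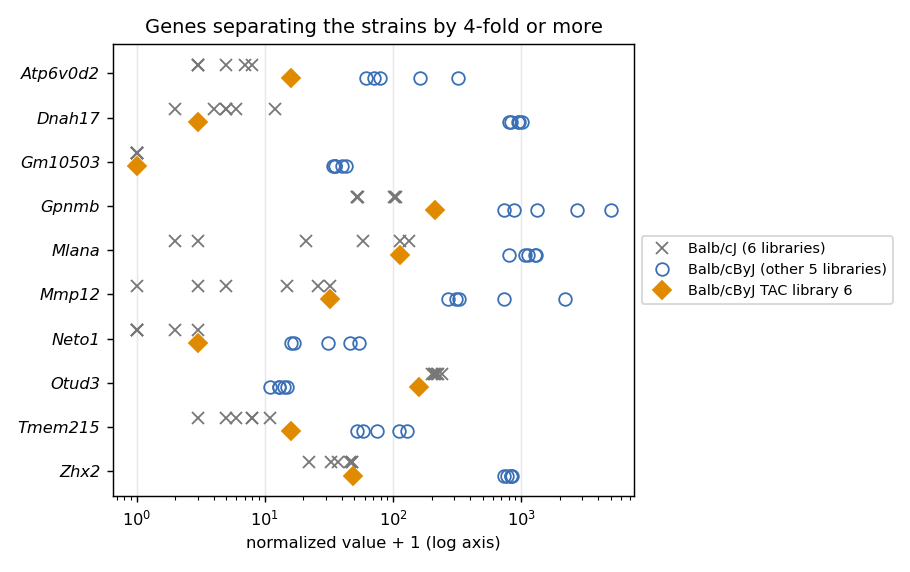
Normalized value + 1, on a log axis, of the 10 genes that separate the strains by 4-fold or more, with 1 point per library (crosses, 6 Balb/cJ; circles, the other 5 Balb/cByJ; filled diamond, Balb/cByJ TAC library 6). At all 10 genes the diamond lies nearer the crosses, for example at Zhx2 with 48 against 728 to 838 in the other Balb/cByJ libraries.

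Without TAC library 6, 687 genes passed (4.89%), 557 of them higher (3.97%) and 130 lower (0.926%). Of these, 492 of the rises and 104 of the falls had also passed with it, 91 were called only without it, and 0 were called in opposite directions. Other single libraries also moved the count. Without sham library 1 only 6 genes passed, all higher; without sham library 3, 75 passed; without sham library 2, 2321 passed. Leaving out TAC library 4 or 5 left 515 and 469. All 130 genes that passed among those named by rule kept their sign in each of the 6 fits that left out 1 library. The rule took the largest changes, and the members of smallest p in each gene list. Of all 1765 genes that passed, 1696 had groups that did not overlap. Leaving out 1 library cannot reverse the sign of such a gene, so the kept signs say little about steadiness. Among the 130 named genes, 22 passed in at least 5 of the 6 fits, and 3 passed in all 6, among them Eln and Pi16. Each of the other named genes lost its call without sham library 1 and without at least 1 other library.

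Library totals of normalized values ran from 27790037 to 31092208 in sham and from 26157968 to 26989827 after TAC. The number of reads is not given by these values. Mitochondrial transcripts took 12.93% to 17.24% of the total, and log2 profiles within a group correlated at 0.976 to 0.9869 across genes. Cardiomyocyte markers were abundant in all 6 libraries, and 0 of the 13 passed in either direction (median log2 difference -0.28, -0.36 without TAC library 6). Of the 13 log2 differences 12 were below 0. TAC lay wholly below sham at 4 (18.8% of all genes tested), and at 9 without TAC library 6 (24.5%). At 0.1 the authors' deposited DESeq2 calls had the 5 members of smallest p here (Ckm, Myl3, Pln, Tnni3 and Myl2) as lower, and not Myh6. Acads itself had 6929, 6234 and 6925 in sham and 5674, 5613 and 6697 after TAC, a log2 difference of -0.16 ± 0.15 (SE; adjusted p = 0.501, limma). Without TAC library 6 it was -0.24 (adjusted p = 0.397), so the transcript of the deleted gene was still counted in both groups.

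The muscle stress response was partial. Of 31 measured genes of the heart stress and fetal list, 8 rose and 0 fell, with a median log2 difference of 0.53; without TAC library 6, 10 rose and the median was 0.74. Myh7, the slow beta-myosin heavy chain of the fetal ventricle (chr14:54970688-54994549, minus strand, mm10), had 43079, 46295 and 47958 in sham and 86367, 68689 and 94553 after TAC. Every TAC library lay above every sham library. The log2 difference was 0.85 ± 0.16 (adjusted p = 0.025, limma), and 0.75 (adjusted p = 0.0624) without TAC library 6. Fhl1, a LIM-domain protein tied to the stretch response of the sarcomere, had 3850, 3850 and 3168 in sham and 12091, 11262 and 7568 after TAC. Its log2 difference was 1.49 ± 0.23 (adjusted p = 0.0181, limma), and 1.69 (adjusted p = 0.0148) without TAC library 6. At Fhl1 too every TAC library lay above every sham library, as at 16.4% of all genes tested.

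The other members that rose were Uchl1, a ubiquitin hydrolase (log2 2.04 ± 0.46, 2.10 without), Mybpc2, the fast-muscle myosin-binding protein C (1.23, 1.26 without), Xirp2, an actin-binding protein of the intercalated disc (1.06, 1.32 without), Ace, the angiotensin-converting enzyme (0.91 ± 0.21, 0.99 without), Pfkp, the platelet phosphofructokinase (0.80, 0.93 without), and Synpo2l, an actin-associated protein (0.67 ± 0.18, 0.75 without). Mybpc2 did not pass without TAC library 6. Nmrk2, Rcan1 and Actn1 passed only without it. Nmrk2, a nicotinamide riboside kinase of stressed muscle, had 369, 258 and 200 in sham and 1733, 1178 and 299 after TAC. Rcan1, a calcineurin target and regulator, had 3756, 3299 and 3267 in sham and 6235, 6023 and 3516 after TAC. For both genes TAC libraries 4 and 5 stood well above sham and TAC library 6 stood within the sham range, and the median deviation of the whole list from the sham mean was 0.66, 0.59 and 0.11 in TAC libraries 4, 5 and 6.

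Several classical load markers did not pass. Nppa, atrial natriuretic peptide, ran from 2851 to 58863 in sham and from 19809 to 132138 after TAC (log2 2.16 ± 0.95, adjusted p = 0.17, limma; 1.93, adjusted p = 0.314, without TAC library 6). Nppb, brain natriuretic peptide, had 14325, 8212 and 10572 in sham and 9622, 13496 and 13485 after TAC (0.16, adjusted p = 0.698; 0.08, adjusted p = 0.886). Acta1, skeletal alpha-actin of the fetal heart, had 92026, 64368 and 97010 in sham and 202556, 161235 and 87460 after TAC (0.77, adjusted p = 0.184; 1.12, adjusted p = 0.111). The groups overlapped for all 3 genes. Ankrd1, a stretch-responsive ankyrin repeat protein, had a log2 difference of 0.34, and Atp2a2, the calcium pump of the sarcoplasmic reticulum, -0.38. Myh6, the adult alpha-myosin heavy chain, had -0.12. These 3 genes did not pass with TAC library 6 or without it. TAC lay wholly above sham for Ankrd1 and wholly below it for Atp2a2, as for 16.4% and 18.8% of all genes tested. At 0.1 the authors' deposited DESeq2 calls had Ankrd1 (adjusted p = 0.0681) and Atp2a2 (adjusted p = 0.00251). They had none of Nppa, Nppb, Acta1 and Myh6.

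Among 31 cytoskeletal and tubulin genes 6 rose and 1 fell (4 and 0 without TAC library 6). With libraries scaled to the same total 16 rose and 0 fell, and the median of 0.29 became 0.45. Tubb3, a beta-tubulin known best from neurons, was the largest rise of all by the rule used to name genes, with 15, 12 and 3 in sham and 58, 424 and 203 after TAC (log2 4.20 ± 0.69, adjusted p = 0.0196, limma; 4.07, adjusted p = 0.0444, without TAC library 6). Tubb2b (1.30 ± 0.37, 1.65 without), Map1b, a microtubule-associated protein (1.00 ± 0.25, 0.97 without), Tubb4a (0.86 ± 0.26, 0.92 without) and Flna, filamin A (0.71 ± 0.18, 0.75 without), rose with it, and Map1b and Tubb4a did not pass without TAC library 6. Tuba4a had 32117, 27059 and 31420 in sham and 14771, 18105 and 17272 after TAC (log2 -0.85; not passed without TAC library 6). Tubulin genes are near copies of each other, and how reads shared between them were counted is not given.

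Promoters of Myh7 and Fhl1 are shown because these genes carry the muscle response and hold a motif that is known from load-responsive heart genes. Motifs were searched on both strands in RefSeq windows (GRCm38.p6) from 250 bases before to 50 bases after the start, without removing overlaps between motifs. The TEAD motif CATTCC was found in 10 of 27 stress-list genes with a window (37%), against 14.6% of the 10919 tested genes with one. The serum response factor motif, the CArG box, was found in 4 of 27 (14.8%) against 1.59%. Other muscle lists held them too. TEAD was found in 4 of 13 cardiomyocyte identity genes (30.8%), 6 of 19 contraction genes (31.6%) and 6 of 13 smooth muscle and pericyte genes (46.2%). The CArG box was found in 2 (15.4%), 2 (10.5%) and 0 of these. Neither share was therefore particular to the stress list. A gene counted if any of its windows held the motif, and the first window that held it is shown. The Fhl1 window was picked in this way and lies at a start within the gene (chrX:56731787-56793346), not at its outermost start. Capitals mark the match, on the complementary strand as GGAATG in Myh7 (chr14:54994577-54994876, minus strand, first base at -201) and the CArG box in Fhl1 (chrX:56779433-56779732, plus strand, first base at -102):
Myh7: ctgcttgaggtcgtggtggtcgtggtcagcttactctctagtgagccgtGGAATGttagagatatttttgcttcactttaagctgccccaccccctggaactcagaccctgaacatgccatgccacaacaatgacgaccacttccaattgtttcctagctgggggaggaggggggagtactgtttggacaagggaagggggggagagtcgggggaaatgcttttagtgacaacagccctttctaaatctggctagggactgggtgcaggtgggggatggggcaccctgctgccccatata
Fhl1: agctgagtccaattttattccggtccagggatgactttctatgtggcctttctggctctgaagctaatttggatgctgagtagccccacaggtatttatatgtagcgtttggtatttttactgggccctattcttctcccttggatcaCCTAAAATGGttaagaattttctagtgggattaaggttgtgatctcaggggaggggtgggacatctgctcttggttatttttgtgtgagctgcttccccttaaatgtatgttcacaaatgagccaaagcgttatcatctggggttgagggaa
A match describes letters in these windows and is not evidence of binding.

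**Figure D2:**
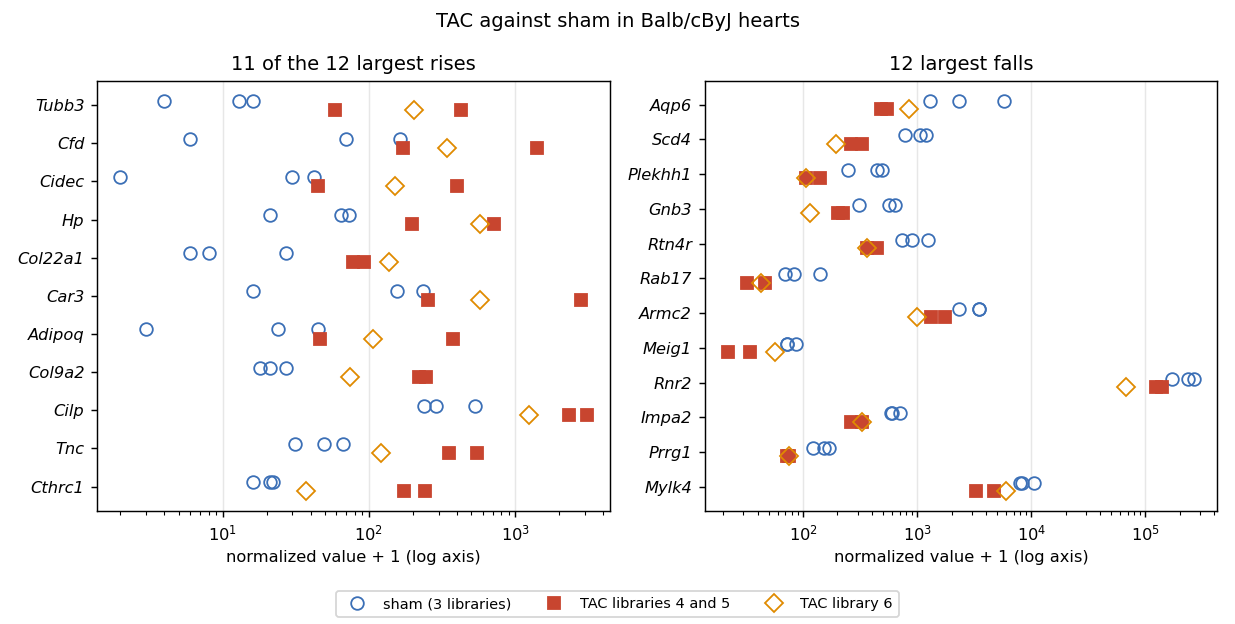
Normalized value + 1, on a log axis, of 11 of the 12 largest rises (left) and the 12 largest falls (right) among named genes, 1 point per library (circles, sham; squares, TAC libraries 4 and 5; diamonds, TAC library 6). Groups do not overlap for any of these genes, because the naming rule required it; TAC library 6 is the TAC library nearest sham for Col9a2, Cilp, Tnc and Cthrc1 among the rises drawn and for Aqp6, Meig1, Impa2 and Mylk4 among the falls.

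Matrix genes made up the broadest rise. Of 35 measured collagens 23 rose and 0 fell, with a median log2 difference of 1.05 (17 and 1.17 without TAC library 6). Col3a1, a fibrillar collagen of the interstitium, had 6978, 13729 and 8604 in sham and 50206, 42890 and 28951 after TAC (log2 2.08 ± 0.36, adjusted p = 0.0226, limma; 2.31, adjusted p = 0.0319, without TAC library 6). Col1a1 had 2683, 5522 and 3507 in sham and 18919, 15313 and 11423 after TAC (2.00 ± 0.38; 2.19 without TAC library 6). The lowest TAC library was at least 2-fold above the highest sham library for both. Col12a1, a fibril-associated collagen, rose more (2.33 ± 0.43, 2.65 without), and Col5a1, which nucleates fibrils, less (1.43 ± 0.27, 1.53 without). Col22a1, a collagen of tissue junctions, had 7, 26 and 5 in sham and 77, 92 and 137 after TAC (3.20 ± 0.49, 2.97 without), and Col9a2, known from cartilage, had 17, 26 and 20 in sham and 244, 219 and 73 after TAC (2.87 ± 0.68, 3.42 without). The last 4 genes passed without TAC library 6 as well.

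Glycoproteins and proteoglycans of the matrix moved the same way, with 34 of 58 higher and 0 lower (median 0.91; 27 and 0.97 without TAC library 6). Eln, elastin, had 1503, 1318 and 885 in sham and 6172, 5205 and 3598 after TAC (log2 2.01 ± 0.30, adjusted p = 0.0181, limma; 2.23, adjusted p = 0.0192, without TAC library 6). Postn, periostin, a product of activated fibroblasts, had 2288, 3542 and 1402 in sham and 14322, 12641 and 7236 after TAC (2.28 ± 0.48; 2.58 without TAC library 6). Cilp, cartilage intermediate layer protein, had 238, 533 and 287 in sham and 3074, 2317 and 1249 after TAC (2.64 ± 0.46; 3.01 without TAC library 6). For these genes TAC library 6 was the lowest of the TAC libraries and still above all 3 sham libraries. TAC lay wholly above sham at 16.4% of all genes tested, and the rule that named Cilp required it. Tnc, tenascin C, which is sparse in healthy adult myocardium, rose by log2 2.62 ± 0.49 (3.24 without), and Cthrc1, a secreted protein of activated fibroblasts, by 2.58 ± 0.69 (3.40 without). In TAC library 6 Tnc reached 119 and Cthrc1 36, against 351 to 548 and 174 to 242 in TAC libraries 4 and 5. The elastic fibre protein Mfap5 (1.79 ± 0.28, 1.96 without), the small proteoglycan Aspn (1.32 ± 0.23, 1.25 without) and Ecm1 (1.04 ± 0.18, 1.08 without) differed less between the TAC libraries.

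Enzymes that process the matrix also rose, 21 of 44 against 0 lower (median 0.59; 17 higher, 1 lower and 0.62 without TAC library 6). Timp1, an inhibitor of matrix metalloproteinases (chrX:20870166-20874737), had 121, 182 and 68 in sham and 707, 588 and 297 after TAC, a log2 difference of 2.11 ± 0.34 (adjusted p = 0.0194, limma; 2.48, adjusted p = 0.0143, without TAC library 6). Timp4, the inhibitor most typical of heart, had 949, 848 and 844 in sham and 679, 650 and 843 after TAC and did not pass (-0.29, adjusted p = 0.594; -0.40, adjusted p = 0.549). Bmp1, which cleaves procollagen (0.96 ± 0.15, 1.02 without), Adamts2, which removes its N-terminal end (1.65 ± 0.28, 1.74 without), Mmp2, a gelatinase (1.13 ± 0.20, 1.18 without), and the cross-linking oxidases Loxl1 (1.19 ± 0.19, 1.30 without) and Lox (2.05, 2.44 without) rose. All of these passed without TAC library 6.

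Within the TGF-beta pathway, a main driver of matrix production, 11 of 34 genes rose and 0 fell (median 0.20; 9 and 0.36 without TAC library 6). The ligand Tgfb2 had 359, 402 and 271 in sham and 849, 1096 and 959 after TAC (log2 1.5 ± 0.26, adjusted p = 0.0226, limma; 1.5, adjusted p = 0.0472, without TAC library 6). Tgfb3 rose less (0.89 ± 0.24; 0.97), and Tgfb1 least (0.40 ± 0.14, 0.48 without), which did not pass without TAC library 6 (0.48, adjusted p = 0.117). The receptors Tgfbr1 (0.49 ± 0.12, 0.51 without) and Tgfbr2 (0.56 ± 0.14, 0.58 without) and the secreted Fstl1 (1.37 ± 0.30, 1.58 without) rose with TAC library 6 and without it. Ctgf, a matricellular target of the pathway, ran from 9607 to 15728 in sham and from 14268 to 22859 after TAC and did not pass (0.42, adjusted p = 0.259; 0.57, adjusted p = 0.213).

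Fibroblast markers were higher for 16 of 25 and lower for 0 (median 0.77; 10 and 0.78 without TAC library 6). Pi16, a marker of fibroblasts of the adventitia (chr17:29318882-29328902), rose in all 6 fits that left out 1 library, with 1670, 2141 and 1533 in sham and 4657, 4630 and 4333 after TAC. The log2 difference was 1.36 ± 0.16 (adjusted p = 0.00583, limma), and 1.40 (adjusted p = 0.0148) without TAC library 6. Lum, lumican, rose by 1.14 ± 0.21 (1.08 without it). The summed marker level was 146955 to 204350 in sham and 276794 to 283842 after TAC, and it includes collagens counted above. Acta2, smooth muscle alpha-actin, the usual mark of myofibroblasts, had 12727, 17506 and 24079 in sham and 14004, 15582 and 19685 after TAC and did not pass (-0.11, adjusted p = 0.827; -0.24, adjusted p = 0.654).

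**Figure D3:**
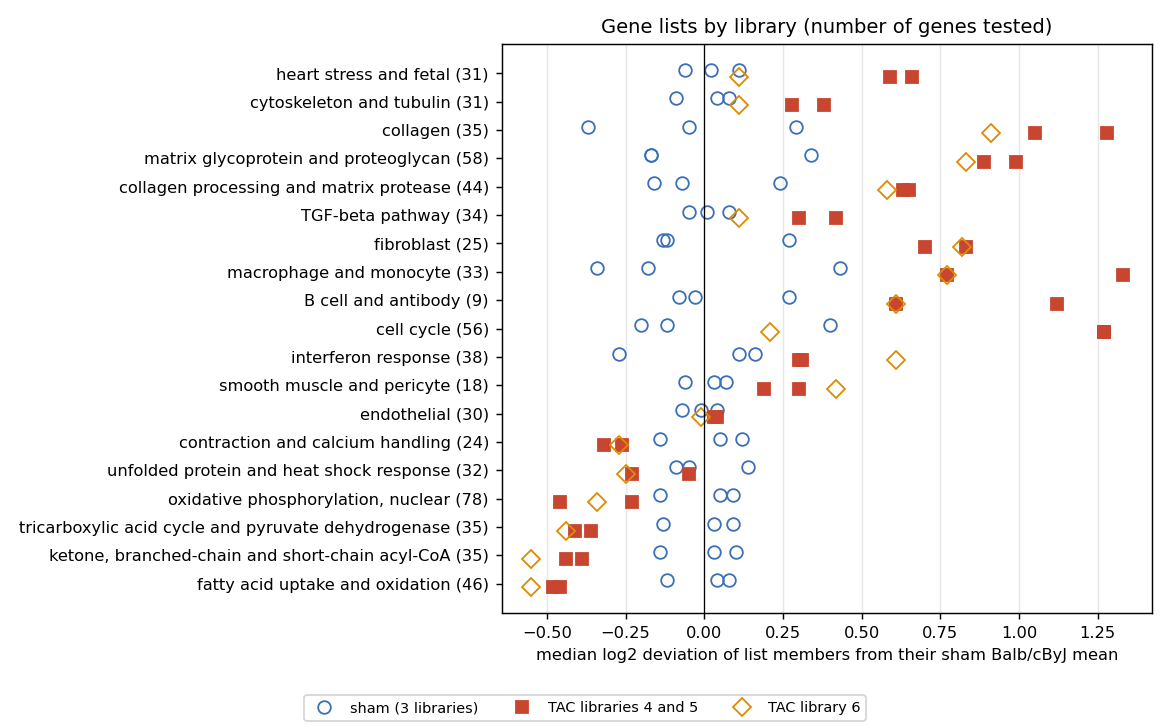
Median log2 deviation of each gene list's measured members from their sham mean, 1 point per library, with the number of genes tested in brackets (circles, sham; squares, TAC libraries 4 and 5; diamonds, TAC library 6). Collagen, fibroblast and macrophage lists are raised in all 3 TAC libraries and energy lists lowered in all 3, while TAC library 6 sits inside the sham range for cell cycle genes (0.21 against 1.27 in each of the other TAC libraries).

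Macrophage and monocyte genes rose in 19 of 33 cases and fell in 0 (median 0.91; 15 and 1.03 without TAC library 6). Itgam, the integrin alpha-M chain of myeloid cells, had 81, 120 and 85 in sham and 375, 195 and 251 after TAC (log2 1.48 ± 0.22, adjusted p = 0.0181, limma; 1.52, adjusted p = 0.0319, without TAC library 6). Mrc1, the mannose receptor of resident macrophages, had 476, 658 and 490 in sham and 1410, 1065 and 1481 after TAC (1.28 ± 0.21; 1.19). Ccr2, the chemokine receptor of recruited monocytes, had 28, 43 and 20 in sham and 141, 72 and 125 after TAC (1.87, 1.77 without), and did not pass without TAC library 6 (1.77, adjusted p = 0.101). TAC lay wholly above sham for all 3, as for 16.4% of all genes tested. Groups that did not overlap were the rule among genes that passed (1696 of 1765, either direction). The Fc receptors Fcgr2b (1.12 ± 0.19, 1.26 without) and Fcgr3 (1.08 ± 0.21, 1.19 without) and the complement subunit C1qb (0.91 ± 0.17, 0.95 without) rose by close amounts. The level summed over all 35 list genes was 13594 to 25094 in sham and 27005 to 42242 after TAC. Sham library 2 and TAC library 4 were the highest of their groups. Gpnmb, at 4973 in TAC library 4 and 212 in TAC library 6, is 1 of the 10 strain genes and part of that sum.

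Of 29 cytokine and chemokine genes 6 rose and 0 fell (median 0.71; 3 and 0.51 without TAC library 6). The receptor Cxcr4 (log2 1.19 ± 0.24, 1.25 without) passed in both fits, and the alarmin Il33 (0.94 ± 0.25, 0.90 without) only with TAC library 6. The acute-phase list had 8 of 25 higher in either fit and 0 lower (median 0.60; 0.57). Saa3, a serum amyloid made outside the liver, had 1, 9 and 0 in sham and 91, 29 and 33 after TAC (4.07 ± 0.71, adjusted p = 0.0227, limma; 4.27, adjusted p = 0.0419). Hp, haptoglobin, had 63, 72 and 20 in sham and 196, 710 and 571 after TAC (3.22 ± 0.67; 3.02). The rises of both genes were uneven between TAC libraries. Osmr, the oncostatin M receptor (0.75 ± 0.15, 0.70 without), and Cp, ceruloplasmin (0.65 ± 0.13, 0.57 without), rose by less than 2-fold.

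Antibody transcripts were low and higher after TAC. Igkc, the kappa light chain constant region (chr6:70726435-70726754), had 17, 9 and 24 in sham and 68, 109 and 90 after TAC (log2 2.42 ± 0.50, adjusted p = 0.0327, limma; 2.40, adjusted p = 0.0707, without TAC library 6). Ighm, the IgM heavy chain, had 113, 191 and 129 in sham and 366, 453 and 445 after TAC (1.57 ± 0.24; 1.53). TAC lay wholly above sham at both genes, as at 16.4% of all genes tested. In all, 4 of the 9 measured B cell and antibody genes rose (3 without TAC library 6), and Pax5 and Cr2, which mark B cells, were at 0 to 2 in every library. Of 9 T and NK cell genes 0 passed in either fit, and of 9 neutrophil and mast cell genes only Hdc, histidine decarboxylase, rose (0.82 ± 0.27; not passed without TAC library 6). The interferon list had 4 of 38 higher (0 without TAC library 6), near the 7.81% higher among all genes tested. Stat2 had 253, 248 and 184 in sham and 309, 345 and 490 after TAC (0.72 ± 0.22, 0.53 without). TAC library 6 was the highest library for Stat2, Ifih1, Ifi204 and Oasl2.

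Cell cycle genes were higher in TAC libraries 4 and 5 than in TAC library 6. Of 56 measured, 7 rose and 0 fell, with a median log2 difference of 0.92; without TAC library 6, 12 rose and the median was 1.30. The median deviation from the sham mean was 1.27 in each of TAC libraries 4 and 5 and 0.21 in TAC library 6, and sham library 2 reached 0.40. Cdca8, borealin, a subunit of the chromosomal passenger complex, had 16, 19 and 14 in sham and 52, 48 and 27 after TAC (log2 1.28 ± 0.32, adjusted p = 0.0505, limma; 1.57, adjusted p = 0.0482, without TAC library 6). Kif11, the kinesin that pushes spindle poles apart, had 15, 31 and 25 in sham and 63, 61 and 45 after TAC (1.26 ± 0.35; 1.41). Foxm1, a transcription factor of mitotic genes, had 24, 39 and 34 in sham and 89, 97 and 53 after TAC (1.26 ± 0.37; 1.52). At these 3 genes TAC library 6 was the lowest of the TAC libraries and above every sham library. TAC lay wholly above sham at 16.4% of all genes tested. Top2a, topoisomerase II alpha, had 52, 80 and 41 in sham and 226, 193 and 65 after TAC and passed only without TAC library 6 (1.34, adjusted p = 0.148; 1.89, adjusted p = 0.0877).

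The promoters of Cdca8 and Kif11 are shown because both rose and both hold the cell cycle homology region motif TTTGAA, known from genes of mitosis. It was found on either strand in 28 of 46 cell cycle genes with a RefSeq window (60.9%), against 14.1% of tested genes with one. Capitals mark the match, in Cdca8 (chr4:124936868-124937167, minus strand, first base at +14) and, on the complementary strand as TTCAAA, in Kif11 (chr19:37376132-37376431, plus strand, first base at -19):
Cdca8: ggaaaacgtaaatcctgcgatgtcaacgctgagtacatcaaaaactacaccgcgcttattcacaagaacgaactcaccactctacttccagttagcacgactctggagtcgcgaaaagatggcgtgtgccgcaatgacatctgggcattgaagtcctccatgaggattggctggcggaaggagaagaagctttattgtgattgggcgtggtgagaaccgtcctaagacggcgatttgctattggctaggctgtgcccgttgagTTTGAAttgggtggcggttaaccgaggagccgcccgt
Kif11: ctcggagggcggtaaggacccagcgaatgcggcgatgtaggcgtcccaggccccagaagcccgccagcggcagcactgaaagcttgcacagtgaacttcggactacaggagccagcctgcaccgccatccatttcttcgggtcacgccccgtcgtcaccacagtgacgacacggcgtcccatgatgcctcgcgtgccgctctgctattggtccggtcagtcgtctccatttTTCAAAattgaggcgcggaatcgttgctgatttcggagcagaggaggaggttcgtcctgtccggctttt
Neither window bears on which cells of the heart held these transcripts.

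Genes of mitochondrial oxidation fell together by modest amounts. Of 46 genes of fatty acid uptake and oxidation 18 fell and 0 rose, with a median log2 difference of -0.53; without TAC library 6 the median was -0.48 and 1 passed, and with libraries scaled to the same total it was -0.37 and 11 passed. The groups of 3 did not overlap, TAC lower, for 38 of the 46, against 18.8% of all genes tested. Acad9, an acyl-CoA dehydrogenase also needed to assemble complex I, had 1812, 1722 and 1921 in sham and 1420, 1328 and 1346 after TAC (log2 -0.41 ± 0.09, adjusted p = 0.0376, limma; -0.40, adjusted p = 0.0801, without TAC library 6). Acadm, the medium-chain acyl-CoA dehydrogenase, had 42243, 36325 and 44439 in sham and 25895, 26278 and 27313 after TAC (-0.63; -0.65, not passed, without TAC library 6). Cpt1b, which admits long-chain fatty acids to muscle mitochondria, had 784, 764 and 958 in sham and 623, 635 and 544 after TAC (-0.47 ± 0.15; -0.40, not passed). The TAC libraries lay within a narrow band below sham for all 3 genes. Crat, carnitine acetyltransferase (-0.58 ± 0.16, -0.59 without), Hsdl2 (-0.73 ± 0.20, -0.65 without), Acad11 (-0.66 ± 0.18, -0.49 without) and Acad8 (-0.41 ± 0.11, -0.37 without) fell likewise and did not pass without TAC library 6.

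In the tricarboxylic acid cycle and pyruvate dehydrogenase list 11 of 35 genes fell and 1 rose (median -0.41; 1 and 0, and -0.39, without TAC library 6). Suclg2, a succinate-CoA ligase subunit, had 5322, 4591 and 5579 in sham and 3706, 3379 and 3358 after TAC (log2 -0.57 ± 0.13, adjusted p = 0.0432, limma; -0.54, adjusted p = 0.0972, without TAC library 6). The subunits of pyruvate and oxoglutarate dehydrogenase fell by 0.54 ± 0.14 for Pdhx, by 0.52 ± 0.13 for Dlst, by 0.49 ± 0.13 for Dld and by 0.46 ± 0.13 for Dlat on the log2 scale, and none of the 4 passed without TAC library 6. Pdk4, the kinase that switches pyruvate dehydrogenase off, had 41832, 47744 and 40975 in sham and 35375, 44695 and 4652 after TAC. Its difference of -1.16 (adjusted p = 0.454) came down to -0.13 (adjusted p = 0.944) without TAC library 6. Ppargc1a, a coactivator of mitochondrial genes, had 1554 to 1990 in sham and 1525 to 1644 after TAC (-0.16, adjusted p = 0.474; -0.16, adjusted p = 0.584).

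Ketone, branched-chain and short-chain acyl-CoA genes had 17 of 35 lower and 1 higher (median -0.45; 1 and 0, and -0.43, without TAC library 6), and 11 lower with libraries scaled to the same total. Dbt, the core of the branched-chain ketoacid dehydrogenase, had 2393, 2087 and 2786 in sham and 1484, 1380 and 1288 after TAC (log2 -0.80 ± 0.17, adjusted p = 0.034, limma; -0.75, adjusted p = 0.0776, without TAC library 6). Oxct1, which activates ketone bodies for use, had 47936, 38537 and 48415 in sham and 35582, 31282 and 28176 after TAC (-0.50 ± 0.13; -0.42, not passed). Ivd, isovaleryl-CoA dehydrogenase, fell by 0.65 ± 0.16 on the log2 scale (-0.59 without, not passed). Bcat1, the cytosolic branched-chain aminotransferase, was the member that rose, with 40, 68 and 37 in sham and 96, 76 and 94 after TAC (0.91 ± 0.23; not passed without TAC library 6). Nuclear genes of oxidative phosphorylation were below sham in all 78 log2 differences (median -0.34; -0.36), but 6 passed (0 without TAC library 6), among them Ndufs1 of complex I (-0.47 ± 0.12, -0.47 without) and Sdha of complex II (-0.44 ± 0.13, -0.44 without). With libraries scaled to the same total that median was -0.18, against 0.15 for all genes.

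**Figure D4:**
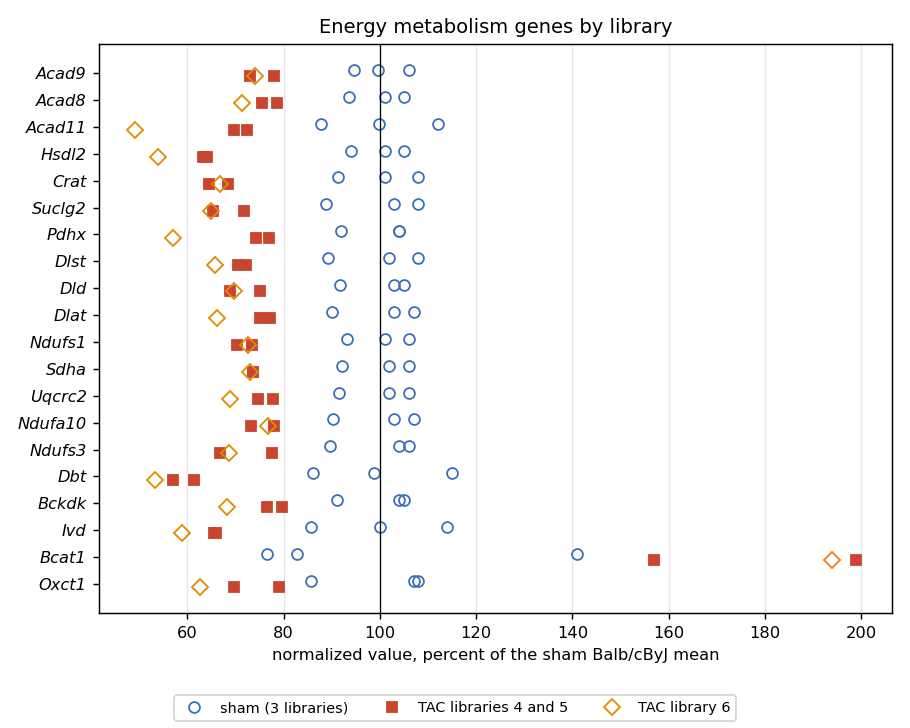
Normalized value as a percent of the sham mean for the 5 energy metabolism genes of smallest p in each of 4 lists, 1 point per library (circles, sham; squares, TAC libraries 4 and 5; diamonds, TAC library 6). All 3 TAC libraries lie to the left of all 3 sham libraries for each gene except Bcat1, as at 18.8% of all genes tested. The genes were picked by smallest p, so this separation follows in large part from the choice. Dbt in TAC libraries 4, 5 and 6 is at 61.3%, 57.0% and 53.2% of the sham mean.

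Glycolysis genes were mixed, with 3 of 33 higher, 0 lower and a median of -0.17 (2, 0 and -0.08 without TAC library 6). The rises were near the 7.81% higher among all genes tested. Pfkp had 1329, 1497 and 1204 in sham and 2528, 2555 and 1966 after TAC (log2 0.80 ± 0.21, adjusted p = 0.0564, limma; 0.93, adjusted p = 0.0743, without TAC library 6). Eno2, the neuronal enolase (1.40 ± 0.46, 1.35 without), and G6pdx, which opens the pentose phosphate path (0.50 ± 0.14, 0.47 without), passed only with TAC library 6, and Slc16a3, a lactate exporter, only without it (0.96, adjusted p = 0.11; 1.32, adjusted p = 0.0707). None of the 19 clock genes passed in either fit, at a median of -0.07 (-0.04 without TAC library 6).

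Genes of contraction, calcium handling and repolarization fell in small numbers. Of 24 contraction genes 3 fell and 0 rose (median -0.24; 0 and -0.23 without TAC library 6), all 3 of the calcium release unit. With libraries scaled to the same total 1 fell and the median was -0.08. Casq2, calsequestrin, had 36682, 35439 and 38983 in sham and 27451, 29257 and 25842 after TAC (log2 -0.43 ± 0.14, adjusted p = 0.0813, limma; -0.38, adjusted p = 0.191). Jph2, junctophilin, and Trdn, triadin, fell by 0.39 ± 0.12 and by 0.35 ± 0.10 and, like Casq2, did not pass without TAC library 6. Of 21 potassium channel genes 2 fell and 0 rose (1 fell without TAC library 6), and with libraries scaled to the same total 1 fell and the median of -0.14 became 0.02. Kcnip2, the subunit of the transient outward current, had 3390, 2592 and 3296 in sham and 1865, 1900 and 1918 after TAC (-0.70 ± 0.17, adjusted p = 0.0439; -0.71, adjusted p = 0.0851, without TAC library 6). The TAC libraries were nearly equal at Kcnip2. Kcnj11, of the ATP-sensitive channel, fell by 0.37 ± 0.09 and did not pass without TAC library 6.

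The largest falls by the naming rule lay outside these lists. Aqp6, an aquaporin, had 2344, 1294 and 5787 in sham and 481, 543 and 850 after TAC (log2 -2.10 ± 0.65, adjusted p = 0.0782, limma; -2.34, adjusted p = 0.12, without TAC library 6). Scd4, a stearoyl-CoA desaturase that heart expresses, had 776, 1184 and 1063 in sham and 260, 326 and 195 after TAC (-1.96 ± 0.61; -1.77, not passed). The desaturases are near copies of each other, and how shared reads were counted is not given. Rtn4r, the Nogo receptor, had 894, 732 and 1249 in sham and 361, 440 and 365 after TAC (-1.27 ± 0.25, adjusted p = 0.0293; -1.23, adjusted p = 0.067, without TAC library 6). Armc2 (-1.19 ± 0.23, -0.99 without), Meig1 (-1.13 ± 0.38, -1.48 without) and Mylk4, a myosin light chain kinase (-0.96 ± 0.28, -1.17 without), also passed in both fits. Plekhh1 (-1.69 ± 0.45, -1.62 without), Gnb3, a G protein beta subunit (-1.46 ± 0.40, -1.17 without), Rab17 (-1.23 ± 0.36, -1.28 without), Impa2, an inositol phosphatase (-1.05 ± 0.32, -1.10 without), and Prrg1 (-0.98 ± 0.28, -0.98 without) passed only with TAC library 6. Rnr2, the large mitochondrial ribosomal RNA, which a library made from polyadenylated RNA captures only in part, had 266925, 171171 and 234890 in sham and 139229, 122583 and 67966 after TAC (-1.07 ± 0.32; -0.76, not passed).

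Of 32 unfolded protein and heat shock genes 5 fell and 0 rose (median -0.20), and 0 fell without TAC library 6 (median -0.14). With libraries scaled to the same total 1 fell, at a median of -0.04, and with upper-quartile scaling 2 fell. Hspa5, the central chaperone of the reticulum, had 22903, 21408 and 21229 in sham and 14761, 15658 and 14876 after TAC (log2 -0.53 ± 0.15, adjusted p = 0.0601, limma; -0.52, adjusted p = 0.125, without TAC library 6). Its groups were tight, with TAC wholly below sham, as at 18.8% of all genes tested. Hspd1, a mitochondrial chaperonin (-0.48 ± 0.15, -0.55 without), Manf (-0.40 ± 0.14, -0.36 without), Hyou1 (-0.36 ± 0.12, -0.34 without) and Pdia6 (-0.25 ± 0.08, -0.28 without), all but the first of the reticulum, were the other members that fell.

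Markers of tissues at the edge of the heart varied between libraries within groups. Of 12 adipocyte genes 5 rose (0 without TAC library 6), namely Adipoq, Cidec, Cfd, Fasn and Car3. The list median of 2.43 ranged from 1.32 to 3.54 as single libraries were left out. At 0.1 the authors' deposited DESeq2 calls had Fasn (adjusted p = 0.0418) but not Adipoq, Cidec, Cfd or Car3 (adjusted p from 0.174 to 0.228). Adipoq, the fat hormone adiponectin, had 44, 23 and 2 in sham and 45, 372 and 105 after TAC (log2 3.04 ± 0.97, adjusted p = 0.083, limma; 3.15, adjusted p = 0.152). TAC library 4 was level with sham library 1. The level summed over all 16 adipocyte list genes was 6694 to 8422 in sham and 8070 to 19114 after TAC, highest in TAC library 5. Atrial genes had 0 of 17 higher and 1 lower, against 7.81% higher and 4.76% lower among all genes tested. Their median ran from -0.15 to 1.08 as single libraries were left out. Myl7, the atrial light chain, had 4670, 14508 and 237 in sham and 640, 30930 and 14285 after TAC, and Sln, sarcolipin, 1576, 6466 and 64 and 235, 11703 and 4122. Nppa followed the same order of libraries within each group as Myl7 and Sln. Whether atrial RNA had a part in the Nppa values was not tested. Dbh, dopamine beta-hydroxylase, was the member that fell (-0.74 ± 0.19; not passed without TAC library 6).

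TAC library 5 also held the most skeletal muscle signal. Summed over all 12 list genes it was 1300, against 130 to 232 in the other 5 libraries. Of these genes 5 were tested and 0 passed. Of 12 Schwann and neural genes 3 rose (2 without TAC library 6): Tubb3, Stmn2 (log2 0.87 ± 0.23, 0.97 without) and Snap25. The last was at 0 in all 3 sham libraries and at 1, 186 and 124 after TAC. The authors' deposited DESeq2 calls at 0.1 had Tubb3 and Stmn2 but not Snap25 (adjusted p = 0.447). Of 30 endothelial genes 2 rose, near the 7.81% higher among all genes tested, and the median was 0.05. They were the adhesion molecule Selp (1.56 ± 0.36, 1.73 without) and Ackr1 (1.48 ± 0.44, 1.42 without). Without TAC library 6 only Selp rose, and the median was 0.03. Of 18 smooth muscle and pericyte genes 5 rose (1 without TAC library 6), led by Cspg4 (0.77 ± 0.17, 0.74 without) and Myh11, smooth muscle myosin (0.98 ± 0.27, 1.06 without). Of 13 epicardial genes Krt18 (1.78 ± 0.58, 2.53 without) and Aldh1a2 (0.94 ± 0.24, 0.82 without) rose, and Krt18 alone without TAC library 6. None of the 4 red blood cell genes passed. Lung and liver markers such as Sftpc, Sftpb, Scgb1a1 and Alb were at 0 or 1 in all 6 libraries. Ager and Ttr, the 2 members of that list with enough signal to test, did not pass (median 0.26, 0.31 without TAC library 6). Summed over all 10 list genes the level was 20 to 28 in sham and 26 to 31 after TAC. The part of these tissues in the other results was not tested.

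The authors' deposited table, made with DESeq2, gave an adjusted p for 14674 genes in the same comparison and called 1537 higher (10.5%) and 1463 lower (9.97%) at 0.1. Of these calls 1000 and 655 were shared with limma, and 0 were opposite. The tables differ in their model of the spread, and the deposited calls include TAC library 6.

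Balb/cJ hearts, with their own sham group, gave more calls, 2146 higher (15.3%) and 2273 lower (16.2%). The genes higher in both strains numbered 775, 70.6% of the rises in Balb/cByJ and 36.1% of those in Balb/cJ. The genes lower in both numbered 425, 63.6% and 18.7%, and 4 genes went in opposite directions. Without TAC library 6 the genes higher in both numbered 470, 84.4% of the rises in Balb/cByJ and 21.7% of those in Balb/cJ. Those lower in both numbered 88, 67.7% and 3.85%, and 1 gene went in opposite directions. Of 129 named genes that passed in Balb/cByJ and had a sham value above 0, 91 passed in Balb/cJ in the same direction; without TAC library 6, 66 of the 129 passed in Balb/cByJ, and 59 of these in Balb/cJ in the same direction. In the test of the difference between strains 1 gene of 14038 passed (0.00712%), Prss35, and 954 had an unadjusted p under 0.05. Without TAC library 6 the same gene passed and 802 had an unadjusted p under 0.05. No gene named here other than Prss35 was shown to respond differently between the strains by that test.

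Some responses nevertheless had different values side by side. Myh7 rose in Balb/cByJ and had 58681, 69371 and 57297 in sham and 61639, 77247 and 65746 after TAC in Balb/cJ (log2 0.14; difference between strains 0.71 ± 0.22, adjusted p = 0.669, limma; 0.61, adjusted p = 0.851, without TAC library 6). Hspa5 had 15401, 17459 and 18970 in sham and 19738, 20444 and 13462 after TAC in Balb/cJ (0.03; difference -0.56 ± 0.21, adjusted p = 0.721; -0.55, adjusted p = 0.857). Igkc had 10, 26 and 15 in sham and 27, 7 and 22 after TAC in Balb/cJ (0.04; difference 2.38 ± 0.71, adjusted p = 0.636; 2.36, adjusted p = 0.827). For these genes the Balb/cJ groups overlapped where the Balb/cByJ groups did not. These genes had passed in Balb/cByJ and are shown for their small differences in Balb/cJ, so that contrast follows from the choice. In Balb/cByJ the groups did not overlap at 35.3% of all genes tested. Cell cycle genes had 47 of 56 higher in Balb/cJ, at a median of 1.73, oxidative phosphorylation genes 67 of 78 lower, at -0.55, and unfolded protein genes 9 of 32 higher and 1 lower, at 0.16. The difference of these counts between strains was not tested.

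**Figure D5:**
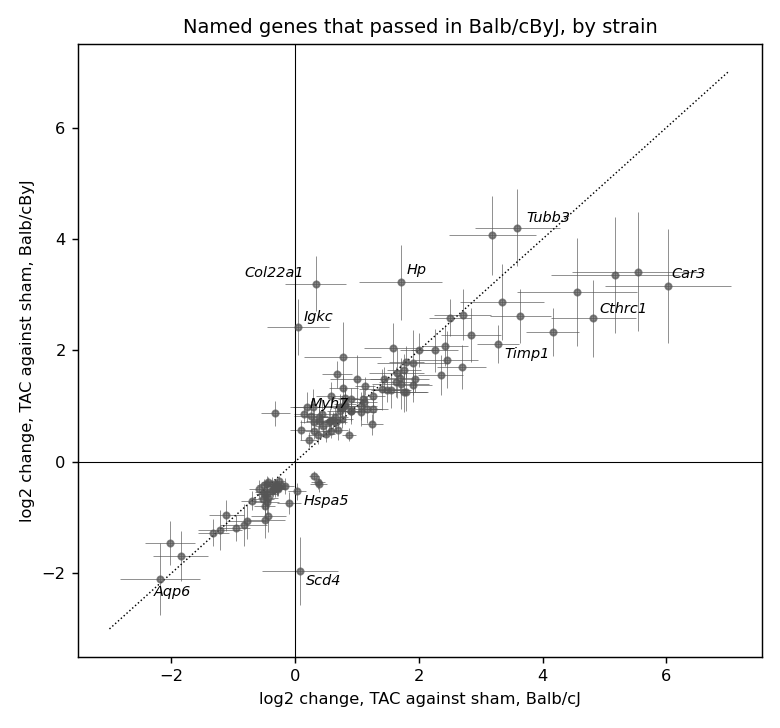
Log2 difference of TAC against sham, with its standard error, in Balb/cJ (horizontal) and Balb/cByJ (vertical) for the 129 named genes that passed in Balb/cByJ and had a sham value above 0; the dotted line marks equal differences. Points fall on both sides of the line, Myh7, Igkc, Col22a1, Hspa5 and Scd4 lie near 0 on the horizontal axis, and none of these 5 passed the test of the difference.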

How the data were processed

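Heart RNA of 12 mouse libraries, 3 for each strain and surgery, was analysed from 1 table of 27179 genes. Libraries were prepared with a TruSeq Stranded mRNA kit, per the labels' protocols, and the submitters' processing notes name STAR, featureCounts of Subread, DESeq2 and the mm10 build, without versions. The deposited values are treated here as a score: normalized read counts that the authors rounded to whole numbers, since they are whole while some libraries skip low whole numbers, so no count model was run and the read depth is unknown. The authors' deposited table also holds shrunken fold changes, taken as log2, and adjusted p-values, used only as the authors' own calls. Gene coordinates are those of the table.

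Values were tested as log2(value + 1) with limma 3.58.1 in R 4.3.3 (empirical Bayes with a trend, a mean per group over all 12 libraries, 8 residual degrees of freedom). Genes needed a mean of at least 10, and Benjamini-Hochberg adjustment ran over all 14038, at 0.1 as in the series' design. Errors are standard errors. TAC columns are numbered 4 to 6 while the sample titles run from 1 to 3, so they were mapped to their group only. Named genes are the 12 largest rises and 12 largest falls (mean of at least 50, groups not overlapping, no predicted genes), up to 5 members of smallest p in each of 34 lists, and a fixed set of load and strain genes; further list members were named after their values were seen, and some named genes are not reported here. The lists hold 985 distinct genes, 864 of them tested. Members and lists were chosen with earlier results of these data known. Scripts were tested on simulated data. Alternatives left out single libraries and changed the pseudocount, filter, scaling, trend, threshold and the libraries fitted.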

Additional observations from a re-analysis of the deposited data

Results flagged for a closer look

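Prss35, a serine protease family member on chromosome 9, was the gene whose response to TAC differed between the strains by the test of that difference. Subtracting the Balb/cJ effect from the Balb/cByJ effect gave -5.10 ± 0.66 on the log2(value + 1) scale (adjusted p = 0.0627, limma), and -5.50 ± 0.65 (adjusted p = 0.0393) without TAC library 6. Its normalized values in Balb/cByJ were 38, 73 and 43 in sham and 42, 56 and 113 after TAC, and those groups overlapped. In Balb/cJ they were 0, 0 and 1 in sham and 69, 32 and 76 after TAC. Because the Balb/cJ sham values were at or near 0, the size of the difference depends on the pseudocount. TAC library 6 held 113, the highest of the 6 Balb/cByJ libraries.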

How the results depend on the processing

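No paired analysis was possible because the table's sham columns are numbered 1 to 3 and its TAC columns 4 to 6, so the groups share no replicate number. With single Balb/cByJ libraries left out of the fit of 12, the genes passing ran from 6 to 2321, those higher from 6 to 1449 and those lower from 0 to 872; with only Balb/cByJ libraries fitted they ran from 103 to 3478, from 80 to 1773 and from 23 to 1705. Within these last fits 689 genes were higher without TAC library 4, 1045 and 1068 were lower without TAC libraries 5 and 6, and without sham library 3, 244 passed, 172 higher and 72 lower, with 84 list genes and 49 named genes. List genes that passed numbered 240, and from 3 to 277 or, within Balb/cByJ, from 44 to 461; named genes numbered 130, and from 3 to 129 or from 27 to 143. With only the 6 Balb/cByJ libraries and none left out, an alternative chosen after seeing the data like the fits that leave out 1 of them, 2848 genes passed, 1402 of them lower, and 390 list genes. Rescaling to the same total left 228 lower, and limma without the trend 339. At a threshold of 0.05, 465 genes passed, 372 higher and 93 lower, with 93 list genes and 55 named genes. The strain difference had 1 gene, and 0 under rescaling to the same total, without the trend, without the filter, with a pseudocount of 5 and at a threshold of 0.05; leaving out single libraries gave 0 to 4. Pseudocounts of 0.5 and 5, no filter and upper-quartile rescaling moved no other count over all tested, list or named genes by over 1.5 times. Single lists moved more: without the filter the falls went from 18 to 10 for fatty acid oxidation, from 6 to 1 for oxidative phosphorylation, from 5 to 2 for unfolded protein and from 3 to 1 for contraction genes, and the rises from 5 to 2 for smooth muscle, from 5 to 3 for adipocyte, from 4 to 2 for interferon and from 2 to 1 for epicardial genes. Counts of 1 in the neutrophil (higher), tricarboxylic acid cycle (higher) and cytoskeleton (lower) lists went to 0. A pseudocount of 5 took the epicardial rises from 2 to 4.

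Genes with a changed sign were ones that had not passed. On the log2 scale, rescaling to the same total gave 0.05 for Acta2, 0.06 for Gpnmb and 0.04 for Myh6. Values were the same to 2 decimals in the fits of all strains and of Balb/cByJ alone: without TAC library 4, 0.00 for Acta2; without TAC library 6, 1.09 for Gpnmb and -0.02 for Prss35; without sham library 2, 0.49 for Gpnmb and -0.03 for Nppb; without sham library 3, 0.12 for Acta2, 0.03 for Myh6, -0.33 for Myl7 and -0.51 for Sln. Over the fits that left out 1 library Acta2 ran from -0.34 to 0.12, Gpnmb from -1.18 to 1.09, Myh6 from -0.23 to 0.03, Myl7 from -0.33 to 3.06, Nppb from -0.03 to 0.37, Prss35 from -0.02 to 0.68 and Sln from -0.51 to 2.99. The cause was not tested. Rounded, normalized values do not show how many reads stand behind them, which limits genes with values near 0 most.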
